A study of Mus musculus with 94 samples.

Results

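The neurotransmitter receptor genes were taken by gene symbol: subunits of AMPA, kainate and NMDA receptors for glutamate, metabotropic glutamate receptors, GABA-A and GABA-B receptors, muscarinic and nicotinic acetylcholine receptors, and dopamine and serotonin receptors. The rule used names and no measured value, and found 94 probes of 66 genes among 25697 probes and 16593 gene symbols. RNA of brain, liver, spleen and thymus had been hybridised to 94 Illumina arrays from 24 male mice of strain C57BL/6N, 17 weeks old. The mice belong to 3 lines: homozygous mutants of Hmgn1 or Hmgn3, or mutants of Hmgn5, each with wild types of its line. The 3 genes encode small nucleosome-binding proteins. Hmgn5 lies on the X chromosome, so males cannot be homozygous for it. Each line and tissue has 4 arrays labelled mutant and 4 wild types, except 3 wild-type livers in the Hmgn1 and Hmgn5 lines. The arrays of a group are from separate mice, and their number limits the precision of every value below. The kind of mutation, and the cells in which it acts, are not given in the sources used here.

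AMPA, kainate and NMDA receptors are glutamate-gated cation channels that carry most fast excitation in brain, and metabotropic glutamate receptors tune it through G proteins. GABA-A receptors are chloride channels for fast inhibition, and GABA-B receptors inhibit through G proteins. Nicotinic receptors are acetylcholine-gated channels of neurons and of muscle, whereas muscarinic, dopamine and nearly all serotonin receptors signal through G proteins and modulate circuits.

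Promoter letters were read from the RefSeq promoter table of GRCm38.p6, which holds 63 windows for 52 of the 66 genes and 32851 windows of all genes. The 250 bases before the start of 4 genes are shown because their tissue levels, given further on, differed in kind: Gria2 and Chrna4 were highest in brain, Grm6 in spleen and Chrna9 in thymus. Capitals mark the motifs found on either strand: GGACAGCGC, a stretch of the element bound by REST, a repressor of neuronal genes, and GGGCGG, a GC box. Gria2 (chr3:80802836-80803085, - strand) holds GGACAGCGC on the opposite strand, 173 bases before the start, and 19 CG pairs. Chrna4 (chr2:181039178-181039427, - strand) holds GGGCGG 3 times and 24 CG pairs. Grm6 (chr11:50850435-50850684, + strand) holds no motif searched and 4 CG pairs. Chrna9 (chr5:65966874-65967123, + strand) holds none and 5 CG pairs.
Gria2: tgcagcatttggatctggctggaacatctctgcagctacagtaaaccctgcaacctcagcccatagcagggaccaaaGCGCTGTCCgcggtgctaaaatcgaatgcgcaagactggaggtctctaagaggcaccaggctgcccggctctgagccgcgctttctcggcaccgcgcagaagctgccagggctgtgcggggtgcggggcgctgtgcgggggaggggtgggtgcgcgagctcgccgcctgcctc
Chrna4: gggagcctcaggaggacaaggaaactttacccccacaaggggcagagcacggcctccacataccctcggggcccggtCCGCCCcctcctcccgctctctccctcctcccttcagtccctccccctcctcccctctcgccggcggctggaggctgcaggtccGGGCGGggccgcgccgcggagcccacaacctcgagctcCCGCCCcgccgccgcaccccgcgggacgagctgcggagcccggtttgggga
Grm6: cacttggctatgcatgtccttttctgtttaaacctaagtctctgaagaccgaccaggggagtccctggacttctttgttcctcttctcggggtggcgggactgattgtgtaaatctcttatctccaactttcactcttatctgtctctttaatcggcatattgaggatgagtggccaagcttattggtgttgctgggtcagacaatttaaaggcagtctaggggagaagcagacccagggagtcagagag
Chrna9: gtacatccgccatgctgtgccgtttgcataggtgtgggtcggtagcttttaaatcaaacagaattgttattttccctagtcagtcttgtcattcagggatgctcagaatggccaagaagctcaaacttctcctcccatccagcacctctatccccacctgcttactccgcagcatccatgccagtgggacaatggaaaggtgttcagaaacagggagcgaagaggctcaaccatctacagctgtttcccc

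Over whole windows, which run on past the start, GGACAGCGC occurred in 2 of 63 receptor windows (Gria2 and Htr5a), against 0.405% of all windows. TTCAGCACC, the other stretch of the REST element, occurred in 0 of 63, against 0.371% of all windows. GGGCGG occurred in 31 of 63 (49.2%), against 35.7%, and TATAAA, the TATA box, in 5, against 13.6%. The median window held 12 CG pairs in receptor genes and 7 in all genes. These are descriptions of letters in a window and show no binding.

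The first question was where receptor genes were expressed, over the 46 wild-type arrays of brain (12), liver (10), spleen (12) and thymus (12). A probe counted as above noise where its intensity exceeded 1.64 times the root mean square of the array's negative values. That limit was 5.77 to 8.56 in brain, 2.73 to 7.51 in thymus, 4.86 to 11.1 in liver and 2.46 to 2.63 in spleen. Of the 94 receptor probes, 45 (35 genes) were above noise on all 12 wild-type brain arrays, 36 on some and 13 on none. The share on all brain arrays was 47.9%, beside 52.0% of all probes. Fewer receptor probes were above noise on every wild-type array of another tissue: 3 in liver (3.19%), 8 in spleen (8.51%) and 4 in thymus (4.26%). Over all probes the shares were 37.1%, 38.3% and 37.4%.

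Receptor probes that could be tested were often higher in brain than in liver, spleen and thymus alike. With the tissues quantile-normalized together, 78 of the 94 probes were tested by limma, and 48 (36 genes, 61.5% of the 78) were higher in brain in all 3 contrasts after Benjamini-Hochberg adjustment, against 19.8% of all tested probes. On the arrays as deposited the same count was 57 of 78 (73.1%), against 49.1% of all tested probes. A probe, receptor or not, was tested if it was above noise on 3 or more wild-type arrays of any tissue. Some receptor probes, such as those of Gria4 and Gabra6, were above noise in brain alone. For these, selection and difference rest on the same brain arrays. Of all 94 receptor probes, tested or not, the 48 were 51.1%. Among these 48, the smallest of the 3 log2 differences ran from 0.14 to 6.50 with a median of 1.14, and it exceeded 1 for 28 probes. Over all 78 tested receptor probes the median of that smallest difference was 0.34, against -0.35 over all tested probes. The probes higher in brain were 9 of 9 AMPA, 2 of 5 kainate, 1 of 4 NMDA, 3 of 4 metabotropic glutamate, 7 of 10 GABA-A, 1 of 1 GABA-B, 3 of 5 muscarinic, 12 of 20 nicotinic, 2 of 4 dopamine and 8 of 16 serotonin receptor probes tested. Of 19 genes with several probes, 7 had all of them in this class, 5 had none, and 7 (Chrm1, Chrm2, Chrnb2, Chrnb3, Gabbr1, Gabrb2 and Grik1) were split between probes. In bulk tissue, fewer cells of a type and less RNA per cell cannot be told apart.

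By gene, 36 of the 66 had a probe higher in brain, 14 had one lower in brain than in another tissue and none higher, 9 were tested without passing in either class, and 7 had no tested probe. The 9 were Chrna7, Drd4, Drd5, Grik4, Grin2a, Grin2b, Grin2c, Htr3b and Htr6, and the 7 were Chrm5, Drd3, Gabra5, Gabrg3, Grin2d, Grm3 and Htr5a. On the arrays as deposited, 7 of those 9 (Drd4, Drd5, Grik4, Grin2a, Grin2b, Grin2c and Htr6) passed as higher in brain. The label of the tissue was checked with neuronal markers: Syt1 and Rbfox3, genes of synaptic vesicles and of neuronal nuclei, averaged 4770 and 6151 over the 12 wild-type brains and 40.6 and 13.7 in liver. Probes of Snap25 and Nefl, which neurons are known to express strongly, were above noise on 0 of 12 brains, so a probe at noise here does not show that its gene is silent.

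**Figure D1:**
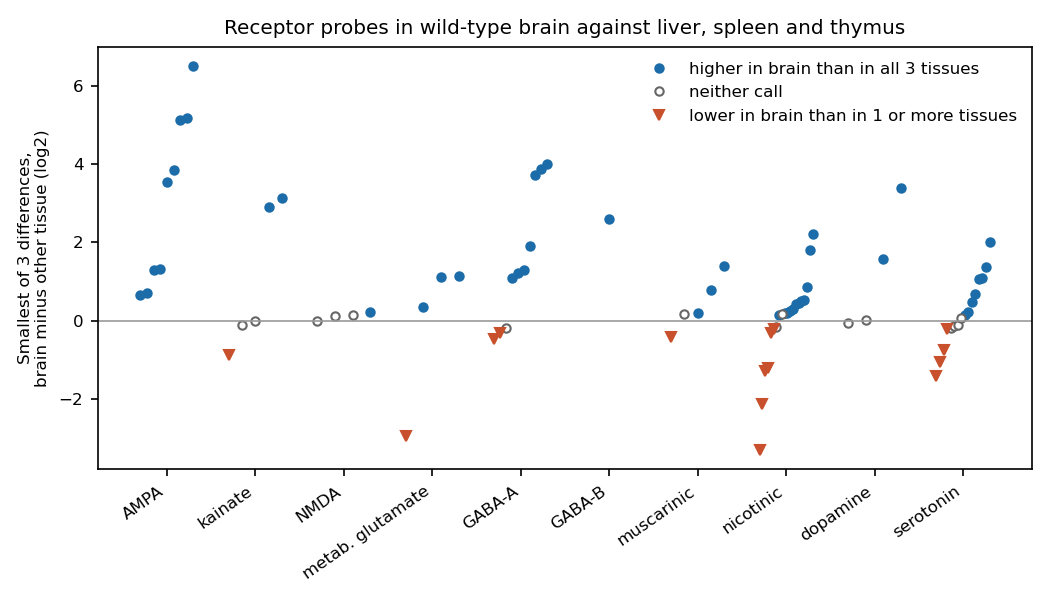
Smallest of the 3 brain-minus-other differences (log2, wild-type arrays quantile-normalized together) for each of the 78 tested receptor probes, by receptor family. Filled blue points are the 48 probes higher in brain than in liver, spleen and thymus, red triangles are the 15 probes lower in brain than in at least 1 other tissue, and open points are in neither class.

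The AMPA receptor genes, whose subunits form the main fast excitatory channel, were bright in brain. Gria2, the subunit that makes the channel impermeable to calcium once its RNA is edited, measured 4799 at the lowest, 5657 at the median and 7579 at the highest of 12 wild-type brains. Its highest array elsewhere was 24.8, in thymus, so no other tissue overlapped brain. The log2 differences of brain from liver, spleen and thymus were 6.74, 6.72 and 6.50 (limma adjusted p 7.1e-42, 1.23e-42 and 6.12e-42). Gria1, a subunit known for activity-dependent insertion at synapses, measured 601, 1415 and 2863 in brain at the lowest, median and highest. No liver or spleen array was above noise, so brain was at least 24.3-fold above liver and at least 26.9-fold above spleen. The brain wild types of the 3 lines did not overlap on this Gria1 probe: 1212 to 1543 in the Hmgn1 line, 601 to 952 in the Hmgn3 line and 2567 to 2863 in the Hmgn5 line. The lines had been normalized apart, so levels across lines were not compared by a test. Gria3, a further subunit, measured 36.5, 145 and 206 in brain, and differed by 0.85, 0.65 and 0.83.

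Kainate receptor genes were split between bright and dim probes, and 1 of 5 NMDA receptor probes was above noise on all 12 wild-type brains. Grik1, a pore-forming kainate subunit, measured 172, 396 and 481 in brain at the lowest, median and highest. No array of another tissue was above noise, so brain was at least 5.22-fold above liver, 5.78-fold above spleen and 5.81-fold above thymus. Grik5, a high-affinity kainate subunit, measured 257, 389 and 874 in brain and differed by 3.14, 3.22 and 3.28. Grin2b, a glutamate-binding NMDA subunit, measured 5.15, 9.33 and 26.1 in brain, and its differences of 0.16, 0.27 and 0.15 did not all pass; as deposited they were 0.52, 0.67 and 0.51 and all passed, so the call rests on the scaling. Grin2c, a further glutamate-binding subunit, was above noise on all 12 brains, at 17.8, 46.8 and 77.1, and differed by 0.11, 0.75 and 0.65, or by 1.12, 1.86 and 1.68 as deposited. Grin3b, a glycine-binding NMDA subunit, measured 4.39, 12.3 and 26.1 and passed by 0.26, 0.23 and 0.35 (limma adjusted p 0.00589, 0.00855 and 0.000135). The brain arrays of Grin2b and Grin3b lay on either side of the noise limit.

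Of the metabotropic glutamate receptors, Grm8 and Grm7 encode presynaptic receptors that lower cyclic AMP. Grm8 measured 63.8, 171 and 207 in brain at the lowest, median and highest, and differed by 1.12 from liver, 1.97 from spleen and 1.75 from thymus. Its highest liver array, 42.5, stayed below the lowest brain array. Those are deposited intensities, on which brain exceeded liver by a median log2 difference of 0.44 over all tested probes. Grm7 measured 47.2, 72.3 and 103, and differed by 1.23, 1.20 and 1.15. It was above noise on no liver array, which puts brain at least 1.63-fold higher.

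The inhibitory receptors had bright probes in brain. Gabrd, the subunit of extrasynaptic GABA-A receptors that carry tonic inhibition, measured 528, 812 and 1068 and differed by 4.28, 4.07 and 3.88. Gabrb1, a beta subunit of GABA-A receptors, measured 536, 753 and 837, and brain was at least 11.3-fold above liver and at least 12.6-fold above thymus, where no array was above noise. Gabbr1, the GABA-binding subunit of GABA-B receptors, measured 199, 252 and 310, and brain was at least 4.10-fold above liver, 4.54-fold above spleen and 4.57-fold above thymus. For each of these 3 probes the lowest brain array was above the highest array of any other tissue.

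Acetylcholine receptor genes varied more. Chrm3, a muscarinic receptor coupled to phospholipase C, measured 137, 186 and 245 in brain and differed by 1.41, 1.59 and 1.79. Chrm2, a muscarinic receptor that lowers cyclic AMP, measured 11.5, 40.5 and 74.4 and differed by 0.87, 0.82 and 0.79. Chrna4 and Chrnb2 encode the subunits of the main high-affinity nicotinic receptor of brain. Chrnb2 measured 201, 322 and 412 and differed by 2.22, 2.68 and 2.66. Chrna4 measured 354, 422 and 549 in brain and was at least 7.81-fold above spleen, where no array was above noise. In liver Chrna4 was above noise too: 34.2 at the lowest, 72.6 at the median and 327 at the highest of 10 arrays, with line means of 162, 55.1 and 83.5 for the Hmgn1, Hmgn3 and Hmgn5 lines. Over all tested probes, deposited brain values exceeded those of liver by a median log2 difference of 0.44. In deposited intensities, all liver arrays stayed below the lowest brain array on this Chrna4 probe. Brain exceeded liver by 0.87 (limma adjusted p = 1.07e-07), and by 0.53 (limma adjusted p = 0.00142) on a second Chrna4 probe, where the highest liver array, 316, exceeded the lowest brain array, 254. The remaining Chrna4 probe was dimmer, at 17.5, 27.4 and 39.4 in brain, and exceeded liver by 0.44.

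The monoamine receptors higher in brain included both main dopamine receptors of the striatum. Drd1, which raises cyclic AMP, measured 277, 524 and 805 in brain and was at least 8.06-fold above liver, 8.93-fold above spleen and 8.98-fold above thymus. Drd2, which lowers cyclic AMP, measured 149, 186 and 248 and differed by 1.57, 2.08 and 2.28. Htr1a and Htr1d are both inhibitory serotonin receptors. Htr1a measured 127, 157 and 191 in brain, at least 2.74-fold above liver, 3.04-fold above spleen and 3.05-fold above thymus. Htr1d measured 63.3, 99.5 and 122 and differed by 1.37, 1.47 and 1.54.

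**Figure D2:**
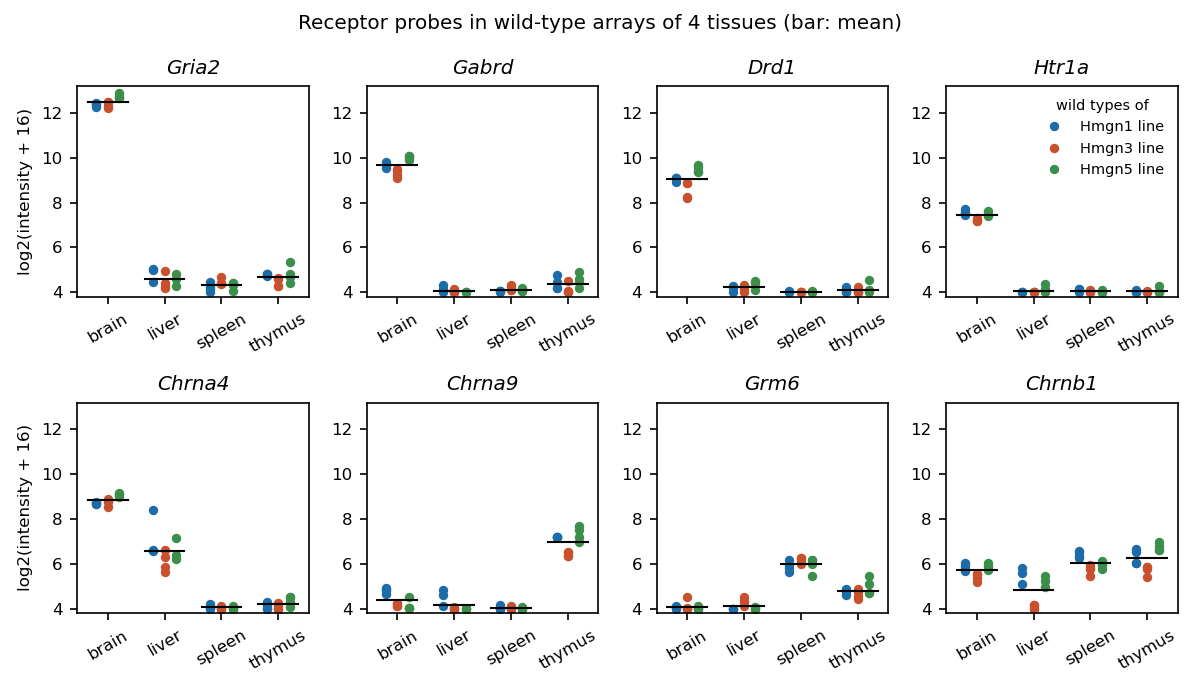
Intensity of 8 receptor probes, as log2(intensity + 16), on every wild-type array of brain, liver, spleen and thymus; points are arrays coloured by line and bars are tissue means. Gria2, Gabrd, Drd1 and Htr1a lie higher in brain than in every other tissue, Chrna4 is also above noise in liver, Chrna9 is highest in thymus and Grm6 in spleen.

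Some receptor probes were lower in brain than elsewhere. With quantile normalization 15 probes (14 genes) were lower in brain than in 1 or more other tissues, against 59.3% of all tested probes. That scaling lowers brain against the others: the median over all probes of brain minus liver, spleen and thymus was -0.07, -0.06 and -0.07, against 0.44, 1.00 and 0.71 on the arrays as deposited. On the arrays as deposited, 6 of the 15 probes (5 genes) still passed as lower in brain: Chrna9, Grm6, Chrna2, both Chrnb1 probes and a probe of Htr2a, a serotonin receptor coupled to phospholipase C. The other 9 probes, for Gabra2, Gabra4, Grik2, Chrm4, Chrna1, Chrnb4, Htr2b, Htr4 and Htr7, did not pass as lower there.

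Chrna9, a nicotinic subunit known from hair cells of the inner ear, was a thymus gene in these arrays. It measured 64.8, 130.0 and 191 in thymus at the lowest, median and highest, and was above noise on all 12 arrays, with line means of 132, 70.4 and 148. In brain it measured 0.35, 2.62 and 14.7, and no brain array reached the lowest thymus array. Brain minus thymus was -3.30 (limma adjusted p = 1.42e-38), and -2.61 on the arrays as deposited.

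Grm6, the glutamate receptor of retinal ON bipolar cells, was highest in spleen. It measured 27.7, 50.04 and 61.6 in spleen and 5.37, 11.1 and 28.1 in thymus at the lowest, median and highest, whereas 1 of 12 brain arrays was above noise. Brain minus spleen was -2.93 (limma adjusted p = 1.14e-26) and brain minus thymus -1.08 (limma adjusted p = 1.24e-10). On the arrays as deposited these differences were -1.92 and -0.73.

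Chrnb1, the beta subunit of the muscle nicotinic receptor, and Chrna2, a neuronal nicotinic subunit, had smaller differences. The brighter Chrnb1 probe measured 20.7, 37.7 and 49.5 in brain, 28.5, 46.9 and 78.1 in spleen and 27.2, 63.4 and 108 in thymus, with overlap between tissues. Its brain minus spleen and brain minus thymus differences were -2.11 and -1.83 (limma adjusted p 1.8e-21 and 5.99e-19), but -0.32 and -0.55 on the arrays as deposited, so their size rests on the scaling. The other Chrnb1 probe had -0.99 and -1.21 with quantile normalization and -0.17 and -0.66 as deposited, where the difference from spleen did not pass. Chrna2 measured 9.49, 28.1 and 56.0 in liver and -1.94, 10.2 and 16.8 in brain, and brain minus liver was -1.27 (limma adjusted p = 6.99e-15), or -0.81 as deposited.

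The second question was whether receptor genes differed between labelled mutants and wild types in brain. The targeted genes were read first. The Hmgn1 probe measured 2259 ± 70.4 in labelled mutants and 2647 ± 93.0 in wild types (SD, n = 4 each), without overlap, a change of -0.23 with a limma adjusted p of 0.824. Both Hmgn3 probes fell, by 0.55 and 0.56 on the log2 scale (limma adjusted p 0.0175 and 0.00442). The Hmgn5 probe changed by 0.39 (limma adjusted p = 0.64). The targeted gene did not pass in the Hmgn1 and Hmgn5 lines, and the arrays are called labelled mutants throughout.

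In brain no receptor probe passed in any line. Of 78 tested probes, 0 had an adjusted p under 0.05 in the Hmgn1 line (0% of all tested probes passed), 0 in the Hmgn3 line (0.0104%) and 0 in the Hmgn5 line (0.0208%), by limma with Benjamini-Hochberg adjustment. The smallest adjusted p of a receptor probe was 0.774, 0.189 and 0.448. At an unadjusted p under 0.05 there were 3 in the Hmgn1 line (all higher), 10 in the Hmgn3 line (6 higher, 4 lower) and 14 in the Hmgn5 line (3 higher, 11 lower), or 3.85%, 12.8% and 17.9% of 78, against 3.87%, 10.7% and 8.95% of all probes. Groups did not overlap for 3, 2 and 3 receptor probes, against 4.22%, 3.41% and 4.67% of all probes. The median change over receptor probes was -0.01, 0.02 and -0.06, beside -0.00, -0.02 and 0.01 over all probes. In simulated data of the same design, a change of 1 on the log2 scale was recovered for 93%, 86% and 89% of changed probes in the 3 lines and a change of 0.5 for 30%, 37% and 38%. The changed probes were drawn from all tested probes and the noise of each was simulated alone, so departures of whole arrays were not represented. Each simulation also held 200 changed probes, whereas 0, 2 and 4 probes passed in the real data of the 3 lines. The adjustment is stricter where fewer probes change, so these shares do not give the recovery of a lone changed probe. The median standard error of a receptor probe was 0.172.

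**Figure D3:**
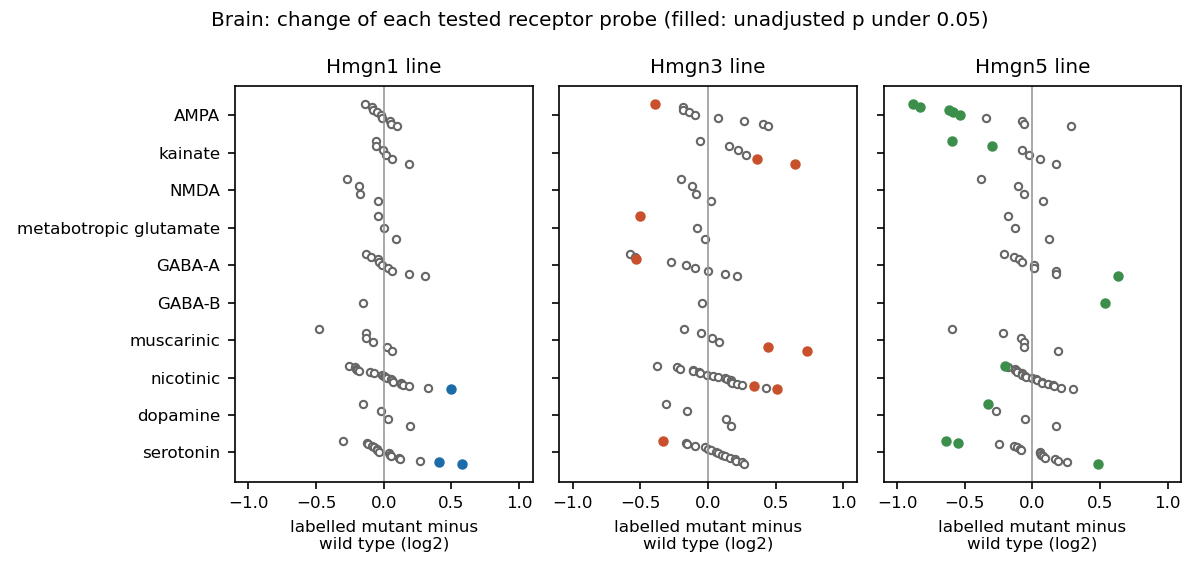
Change of each of the 78 tested receptor probes in brain, labelled mutant minus wild type (log2), by receptor family in the Hmgn1, Hmgn3 and Hmgn5 lines (4 arrays a group). Filled points have an unadjusted p under 0.05 by limma, and none passes after adjustment. In the Hmgn5 line 8 of 9 AMPA probes, which cover 4 genes, lie below 0.

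By family, AMPA probes of the Hmgn5 line, described below, had the lowest median change. Kainate probes of the Hmgn3 line had a median of 0.25 with 5 of 6 higher, GABA-A probes of that line -0.16 with 7 of 9 lower, and NMDA probes of the Hmgn1 line -0.18 with 4 of 4 lower. Nicotinic probes, the largest family, had medians of 0.01, 0.10 and -0.02 in the 3 lines, and serotonin probes 0.00, 0.07 and 0.06. Dopamine probes had 0.00, -0.01 and -0.16, with 1 of 4 at an unadjusted p under 0.05 in the Hmgn5 line.

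The unadjusted counts moved with single arrays: the Hmgn1 count of 3 was 5 without labelled mutant 1, 2 without labelled mutant 4 and 2 without wild type 1 or 3. The Hmgn3 count of 10 was 4 without labelled mutant 4, 6 without wild type 2 and 14 without labelled mutant 1.

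In the Hmgn1 line the named probes were dim. Chrm2 measured 41.1, 39.9, 45.2 and 30.6 in wild types 1 to 4 and 22.9, 21.2, 24.1 and 25.3 in labelled mutants 1 to 4. All labelled mutants were below all wild types, a change of -0.48 (SE 0.295, limma adjusted p = 1). Htr1f, an inhibitory serotonin receptor, measured 29.5, 30.7, 30.5 and 28.0 in wild types and 21.6, 14.7, 25.6 and 23.3 in labelled mutants, again without overlap, a change of -0.30. Its other probe changed by 0.12. Htr2b, a serotonin receptor coupled to phospholipase C, measured 4.87, 11.3, -1.26 and 2.05 in wild types and 15.4, 4.62, 22.2 and 17.4 in labelled mutants, which overlap (0.58, limma adjusted p = 0.774). Htr2c, its relative of the choroid plexus, changed by 0.41. The Chrnb1 probes went opposite ways, by 0.49 and -0.22, and the former was above noise on no wild type, which puts labelled mutants at least 1.05-fold higher. Grik1 lies within 10 Mb of Hmgn1 on chromosome 16, and its 3 probes changed by 0.02, -0.05 and 0.19.

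In the Hmgn3 line a wild type and a labelled mutant set several values. A dim Grik1 probe measured -1.80, 2.99, 1.84 and 3.29 in wild types 1 to 4 and 6.35, 5.58, 10.6 and 32.0 in labelled mutants 1 to 4. The groups did not overlap, and the change was 0.64 (SE 0.166, limma adjusted p = 0.189), at least 1.29-fold because no wild type was above noise. This probe was tested only because 3 of these labelled mutants were above noise, so its change and lack of overlap carry that selection. Grm8 measured 129, 63.8, 116 and 125 in wild types and 74.7, 75.2, 70.5 and 59.1 in labelled mutants. Wild type 2 lay among the labelled mutants, and the change was -0.50 (limma adjusted p = 0.21). Without wild type 2 it was -0.70 with a limma adjusted p of 0.0033, the sole single-array omission in brain that made a receptor probe pass. Gabra3, a GABA-A alpha subunit, measured 174, 172, 161 and 163 in wild types and 149, 150, 148 and 41.5 in labelled mutants. All 4 labelled mutants were lower, and the change of -0.53 (limma adjusted p = 0.454) was -0.16 without labelled mutant 4 (limma adjusted p = 0.764). Chrm4 and Chrm5, muscarinic receptors of the striatum and of dopamine neurons, changed by 0.45 and 0.73 (limma adjusted p 0.241 and 0.307), the latter at least 1.25-fold, and Htr4, a serotonin receptor that raises cyclic AMP, by -0.33. Chrm5 was tested only because 2 labelled mutants of this line and 1 wild type of the Hmgn5 line were above noise. Htr1b, within 10 Mb of Hmgn3 on chromosome 9, changed by 0.12.

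Labelled mutant 4 of the Hmgn3 line lay outside the other 7 brain arrays of its line on 7 of 11 marker lists, with the widest gap on the cerebellum list. Pcp2, a gene of cerebellar Purkinje cells, measured 261 there and 1422 to 2421 on the other 23 brain arrays. Cbln1 of cerebellar granule cells measured 1392 against 3546 to 5187, and Zic1, a transcription factor of granule cells, 985 against 1917 to 3534. The mean log2 value of the cerebellum list, of which 5 of 6 genes matched and 3 were above noise, was 7.33 there and 8.28 to 8.58 on the other 7 arrays of the line. Its neuron score was 8.62 (others 8.24 to 8.33), its striatum score 9.69 (9.11 to 9.32), its microglia score 7.61 (7.08 to 7.38) and its thymocyte score 4.80 (4.29 to 4.47). Its astrocyte score was 10.56 (others 10.68 to 11.22) and its choroid plexus score 8.53 (8.74 to 9.09). Of the thymocyte list, 0 of 5 genes were above noise on all wild-type brains, and wild-type brains of the Hmgn1 line reached a score of 4.70. Labelled mutant 4 of the Hmgn3 line was outside the range of the other 7 arrays of its line for 38 of 78 receptor probes (48.7%), against 58.4% of all probes. Labelled mutant 2 of the line had a skeletal muscle score of 7.28, beside 4.65 to 5.21 on the other brain arrays. The part of either in the Hmgn3 results was not tested, beyond the omission of single arrays.

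In the Hmgn5 line the AMPA receptor probes leaned down, with 8 of 9 below 0, a median of -0.53 and 5 at an unadjusted p under 0.05, none of which passed after adjustment. Those 9 probes cover 4 genes, with several probes each for Gria1, Gria2 and Gria3. Over all tested probes of this comparison the median was 0.01, and 8.95% had an unadjusted p under 0.05 by limma. The brightest Gria1 probe measured 2852, 2567, 2863 and 2699 in wild types 1 to 4 and 2754, 2488, 1239 and 1493 in labelled mutants 1 to 4. Labelled mutants 3 and 4 were low and labelled mutants 1 and 2 lay near the wild types. The change was -0.53 (SE 0.192, limma adjusted p = 0.466), and the other Gria1 probes changed by -0.58 and -0.62. On the latter, wild types ran from 1273 to 1363 and labelled mutants measured 1248, 1272, 480.2 and 684, so the groups just failed to overlap. A Gria3 probe measured 82.2, 92.3, 93.96 and 95.4 in wild types and 57.3, 60.5, 21.8 and 37.6 in labelled mutants. All labelled mutants were lower (-0.88, SE 0.235, limma adjusted p = 0.448), and the other Gria3 probes changed by -0.83 and -0.34. The Gria2 probes changed by -0.08 and -0.06, and Gria4, a subunit of interneurons and cerebellum, by 0.29.

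Labelled mutants 3 and 4 were also the outermost arrays for Grik5, Htr1f, Gabra3 and Gabbr1, but not for Htr2a. Grik5 measured 874, 636, 706 and 679 in wild types and 593, 609.99, 399 and 341 in labelled mutants, which did not overlap (-0.59, SE 0.173, limma adjusted p = 0.45). Htr1f measured 47.2, 53.4, 48.5 and 38.2 in wild types and 40.3, 28.2, 22.8 and 18.5 in labelled mutants (-0.55, limma adjusted p = 0.466), and its other probe changed by -0.64. For both, labelled mutants 3 and 4 were the lowest arrays. Gabra3 measured 111, 113, 102 and 121 in wild types and 114, 161, 212 and 281 in labelled mutants (0.64, limma adjusted p = 0.492). Gabbr1 measured 229, 224, 199 and 244 in wild types and 230.5, 236, 449 and 486 in labelled mutants (0.53, limma adjusted p = 0.516). In both GABA receptor genes labelled mutants 3 and 4 were the highest arrays. Htr2a measured 1.97, 3.84, 7.14 and 1.62 in wild types and 6.84, 17.6, 13.9 and 8.44 in labelled mutants (0.49, limma adjusted p = 0.466). Gria3, Gabra3 and Htr2c lie on the X chromosome with Hmgn5, none within 10 Mb of it.

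**Figure D4:**
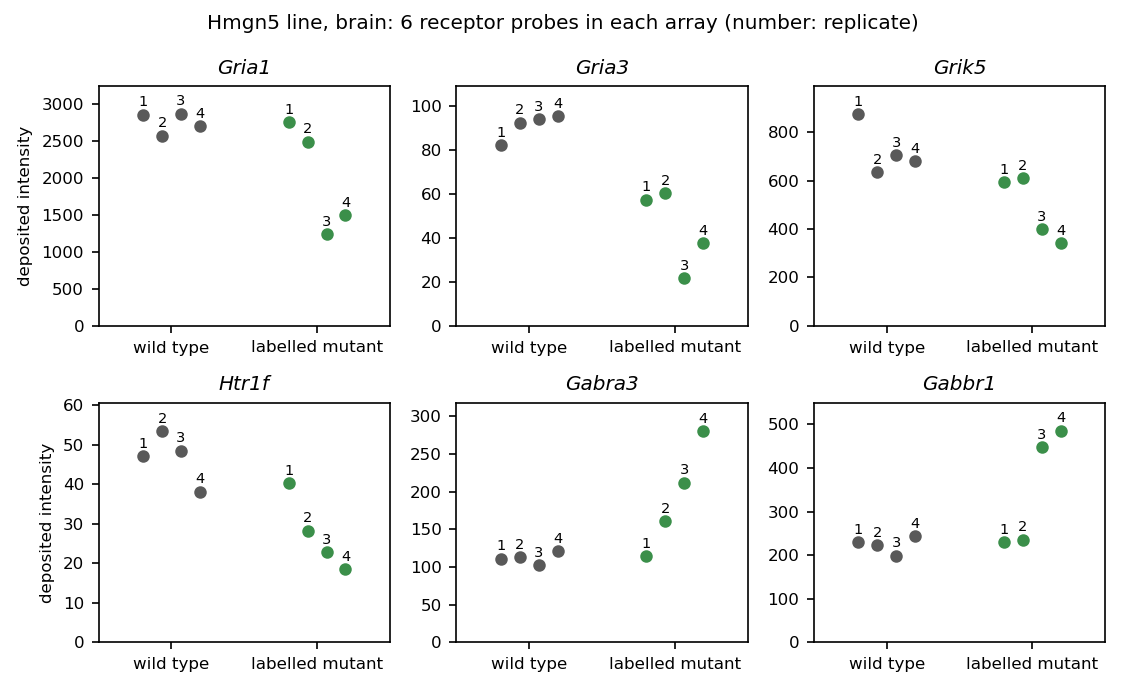
Deposited intensity of 6 receptor probes on the 8 brain arrays of the Hmgn5 line, wild types and labelled mutants, each point numbered by its replicate. Labelled mutants 3 and 4 are the lowest arrays for Gria1, Gria3, Grik5 and Htr1f and the highest for Gabra3 and Gabbr1.

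Cell type markers of the Hmgn5 line are given beside these values. The scores are mean log2 values of marker lists, of which 4 of 4 astrocyte, 4 of 4 microglia and 4 of 6 neuron genes were above noise on all wild-type brains. The astrocyte score was 11.45 and 11.34 in labelled mutants 3 and 4, 11.60 and 11.54 in labelled mutants 1 and 2, and 11.48 to 11.91 in wild types. The microglia score was 7.82, 7.72, 7.45 and 7.59 in labelled mutants 1 to 4, against 7.78 to 7.85 in wild types. The neuron score was 8.44, 8.50, 8.47 and 8.70, against 8.43 to 8.65, so labelled mutant 4 alone was outside. The count of 14 receptor probes at an unadjusted p under 0.05 was 5 without labelled mutant 3 and 7 without labelled mutant 4. Labelled mutant 4 was outside the range of the other arrays of its line for 35 of 78 receptor probes (44.9%), beside 44.7% of all probes. For labelled mutant 3 it was 17 of 78 (21.8%), beside 27.7% of all probes, and for wild type 1 it was 27 of 78 (34.6%), beside 31.3%. The part of these differences in the receptor values was not tested.

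The mutant effects of the 3 lines were then compared in brain by an F test. It passed for 0 of 78 receptor probes after adjustment, against 0.00521% of all probes, and 15 had an unadjusted p under 0.05 (19.2%, against 9.87% of all probes). Grik5 had the smallest limma adjusted p, 0.353. Partner genes gave no call either. Among auxiliary and anchoring proteins of receptors, 27 of 36 genes matched. Of their 45 probes, tested or not, 30 (66.7%) were higher in brain. The same share over the 94 receptor probes was 51.1%. The 19.8% given for all probes has an unlike base, as it counts tested probes only. Of 42 list probes tested for mutant changes, 0 passed in any line. At an unadjusted p under 0.05 there were 0, 3 and 5 in the Hmgn1, Hmgn3 and Hmgn5 lines (3.87%, 10.7% and 8.95% of all probes). For transmitter synthesis and transport, 23 of 26 genes matched, and 18 of 32 probes, tested or not, were higher in brain (56.2%). Of 29 tested for mutant changes, 0 passed, with 1 at an unadjusted p under 0.05 in each line.

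Some receptor genes mark a brain region, and 4 were set against marker scores over the 24 brain arrays after the group means were removed. Gabra6, a GABA-A subunit of cerebellar granule cells, followed the cerebellum score, with Pearson r = 0.94 (permutation p = 0.00494, adjusted over 4 relations 0.0198) and Spearman rho = 0.71 (permutation p = 0.00874, adjusted 0.035). The relation rests on few arrays: without the 2 farthest, labelled mutant 4 and wild type 3 of the Hmgn3 line, r was 0.38 (adjusted permutation p = 0.464). Within lines r was 0.04 in the Hmgn1, 0.98 in the Hmgn3 and 0.74 in the Hmgn5 line (adjusted permutation p 0.906, 0.0666 and 0.557). In the Hmgn3 line Gabra6 measured 285, 154, 110.4 and 214 in wild types and 207, 295, 212 and 2.90 in labelled mutants, the last at noise, a change of -0.58 (limma adjusted p = 0.738).

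The striatal and choroid plexus relations did not pass. Drd1 had r = -0.24 with the striatum score (rho = -0.08) and Drd2 r = -0.03 (rho = 0.02), with adjusted permutation p of 0.509 and 0.901 for r and permutation p of 0.752 and 0.921 for rho. Htr2c had r = 0.23 (rho = 0.14) with the choroid plexus score (adjusted permutation p = 0.509 for r, permutation p = 0.551 for rho). The Htr2c probe was above noise on 5 of 12 wild-type brains.

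**Figure D5:**
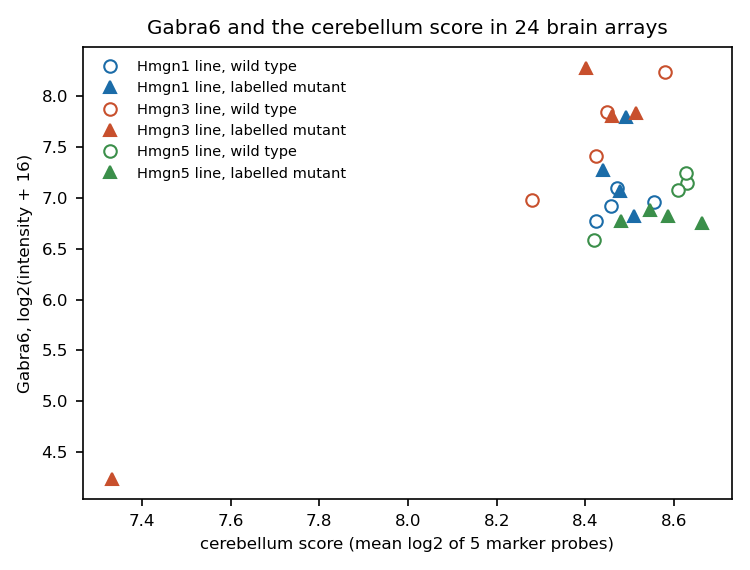
Gabra6 against the cerebellum score on the 24 brain arrays, by line and genotype. The score is the mean log2 value of the 5 matched list genes, of which 3 were above noise on all wild-type brains. Labelled mutant 4 of the Hmgn3 line, at a score of 7.33, lies apart from the other 23 arrays.

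Outside brain the tests covered 27 receptor probes in liver and 39 each in spleen and thymus. For the Hmgn1, Hmgn3 and Hmgn5 lines, 0.0318%, 0% and 0.42% of all probes passed in liver, 3.09%, 2.11% and 0.902% in spleen, and 0.0494%, 0.011% and 0.0934% in thymus. Of the receptor probes 1 passed, Gria1 in spleen of the Hmgn1 line. It measured -2.06, 1.24, -1.49 and -1.12 in wild types and 3.88, 5.32, 4.17 and 1.71 in labelled mutants, of which 3 were above the noise limit of spleen and no wild type was. It rose by 0.28 (SE 0.0674, limma adjusted p = 0.0292), at least 1.06-fold. The probe was tested only because those 3 labelled mutants were above noise, so its selection and its rise rest on the same arrays. The count passing fell to 0 without any single wild type of that line and tissue, or without labelled mutant 2, 3 or 4. With the arrays of the line alone it was also 0 (limma adjusted p = 0.135 for Gria1). Without labelled mutant 1, 2 or 3 the Gria1 probe left the test, as it was then above noise on too few arrays. The Gria1 call thus held under no omission of a single array of that line and tissue. Any call left without labelled mutant 1 was of another probe.

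Chrna9, Grm6, Chrnb1 and Chrna4, the receptor genes described above in other tissues, did not pass there in any line. Chrna9 in thymus ran from 131 to 133 in wild types and 110.2 to 124 in labelled mutants of the Hmgn1 line (-0.13, limma adjusted p = 0.861). In the Hmgn3 line it ran from 64.8 to 76.1 and from 51.6 to 63.9 (-0.22, limma adjusted p = 0.836), and in the Hmgn5 line it changed by 0.01. The groups of the Hmgn1 and Hmgn3 lines did not overlap, as was so for 6.04% and 5.32% of all probes tested in thymus. Grm6 in spleen changed by 0.28 (limma adjusted p = 0.312), 0.01 and 0.11 in the 3 lines. The brighter Chrnb1 probe in spleen of the Hmgn5 line ran from 38.2 to 52.8 in wild types and from 33.6 to 37.3 in labelled mutants (-0.27, limma adjusted p = 0.165), without overlap, as for 7.83% of all probes. Chrna4 in liver of the Hmgn5 line measured 124.8, 58.4 and 67.3 in wild types and 319, 99.6, 178 and 105 in labelled mutants, which overlap (0.86, limma adjusted p = 0.572), and a second Chrna4 probe changed by 1.05 (limma adjusted p = 0.537).

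Unadjusted counts outside brain lay near or under the background except in thymus of the Hmgn5 line. There 8 of 39 receptor probes (20.5%, 5 higher and 3 lower) had an unadjusted p under 0.05, against 9.14% of all probes. The smallest limma adjusted p among them was 0.108, for Htr4, which measured 5.11, 3.38, 3.49 and 0.77 in wild types and 6.83, 16.5, 10.2 and 13.5 in labelled mutants (0.53), without overlap, as for 3.15% of all probes. In the Hmgn1, Hmgn3 and Hmgn5 lines the counts were 2, 1 and 2 in liver (8.09%, 4.86% and 11.1% of all probes) and 2, 0 and 2 in spleen (19.2%, 15.2% and 14.5%). In thymus they were 1 and 0 for the Hmgn1 and Hmgn3 lines (8.37% and 6.31%).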

How the data were processed

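Normalized intensity values of one deposited table were used; the submitters' processing notes name GenomeStudio 2011.1, and how the values were normalized is not stated in the sources used. Between 19.2% and 29.1% of an array's deposited intensity values were below 0, and arrays share quantiles within a line and tissue only. A table of raw signals, with 188 columns of per-sample values, was not used because its column names match no label. Wild types were placed in a line by mouse number, 1 mouse by elimination. The members, gene lists and tests were chosen with earlier results of these data known.

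Values were floored at 0, 16 was added and log2 taken; differences of dim probes are understated on this scale. Probes above 1.64 times the noise on 3 or more arrays were tested with limma 3.58.1 (R 4.3.3), two-sided, with Benjamini-Hochberg adjustment over all tested probes at 0.05. The tissue fit used 46 quantile-normalized wild-type arrays with the mouse as a random block (correlation 0.0349). The mutant fits held the 6 groups of a tissue in 1 model. A fold is given as "at least" where no array of the dimmer group was above noise: its values were raised to the noise limit. Region relations used 100000 permutations within groups; sequences were read with Python 3.11.15.

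Of the probes, 23978 carry 1 gene symbol and 1719 none. Genes were named by rule: the 2 clearest per family in the tissue comparison, all that passed as lower in brain, the 3 highest and 3 lowest changes by smallest p in each line's brain, all that passed elsewhere, and members above noise in another tissue. The Hmgn5 line's further AMPA, Gabbr1 and Htr2a values, and Grin2c, Htr4 and Htr1b, were added after the values were seen. The self-test changed 200 of 19196 simulated probes per line, and 5 of 128, 7 of 130 and 9 of 136 calls were false in the Hmgn1, Hmgn3 and Hmgn5 lines. In the tissue fit 98% of changes of 1 were recovered, with 0 of 196 calls false. Alternatives were the offset, filters, array weights, fits per line, a replicate block, tissues as deposited and single arrays left out.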

Additional observations from a re-analysis of the deposited data

Results flagged for a closer look

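Of 80 groups of 4 or more arrays examined, 12 held an array far from its group; chance alone gives about 1 in 20. All are given as values, and no cause was tested. In brain of the Hmgn3 line, labelled mutant 4 measured 41.5 for Gabra3 (others 148 to 150.01) and 2.90 for Gabra6 (others 207 to 295), with a cerebellum score of 7.33 (others 8.40 to 8.51). Wild type 2 of that line measured 63.8 for Grm8 (others 116 to 129), and wild type 1 measured 1.71 for Chrm5 (others -0.76 to 0.22, all under noise). In brain of the Hmgn1 line, wild type 3 had 469.8 for Drd1 (others 523 to 527) and a striatum score of 9.75 (others 9.89 to 9.91). Labelled mutant 4 of the line had 233 for Drd2 (others 181 to 187), and labelled mutant 3 a choroid plexus score of 8.90 (others 9.19 to 9.23). In brain of the Hmgn5 line, wild type 3 had a cerebellum score of 8.42 (others 8.61 to 8.63) and labelled mutant 2 a choroid plexus score of 8.45 (others 9.19 to 9.29). In spleen of the Hmgn1 line, wild type 2 measured 1.24 for Gria1 (others -2.06 to -1.12), under noise on all 4 arrays.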

How the results depend on the processing

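The 48 probes higher in brain were all among the calls on the arrays as deposited (57), and 34 to 50 were called with another offset, no filter, other blocks or 1 line alone. The stricter filter left 4: it asks for signal on 50% of all 46 wild-type arrays, which a gene detected in brain alone cannot reach. In brain 0 receptor probes passed under every alternative run in the Hmgn1 and Hmgn5 lines, and 0 to 1 in the Hmgn3 line with single arrays left out (Grm8). The 1 call in other tissues became 2 with a floor of 1 in place of the offset and 0 with the arrays of a line and tissue alone, and 0 to 1 with single arrays left out. For Gabra6 and the cerebellum score r was 0.38 without 2 arrays, 0.77 with the floor of 1 (adjusted permutation p = 0.188), and 0.040, 0.98 and 0.74 in the Hmgn1, Hmgn3 and Hmgn5 lines. Relations that did not pass turned sign: Htr2c to -0.070 without 2 arrays, Drd1 to 0.59 and 0.36 in the Hmgn1 and Hmgn5 lines, and Drd2 to 0.48 in the Hmgn3 line. Brain minus spleen of Grik2 and Htr4 turned to 0.021 and 0.00080 on the arrays as deposited, and brain minus thymus of Grin2b to -0.022 in Hmgn5 wild types alone. Apart from the filter, the cause was not tested. Equal replicate numbers did not pair arrays (correlations of deviations from -0.25 to 0.14); with the replicate number as a block, 0 receptor probes passed in each line. Probes near the noise limit, such as those of Grin2b and Grin3b, are limited by noise.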
